A study of Sus scrofa with 12 samples.

Results

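The microRNAs miR-191 (ssc-miR-191) and miR-425-5p (ssc-miR-425-5p, the 5′ arm of miR-425) come from neighbouring precursors and were followed across 12 small RNA libraries of piglet intestine. They were taken by name from each library's own list in the deposited table and are 2 of 337 known microRNAs and of 5850 named small RNAs. Both were listed in every library. The 4 groups held 3 libraries each, from pigs of the breed labelled Big white: suckling piglets past 21 days of age (the feeding group), and piglets past that age whose weaning lay 1, 3 or 7 days back (the 1-day, 3-day and 7-day groups). No genotype, sex, litter or gut segment is given in the labels. Nor do they say whether each library came from its own animal, so p-values measure the spread between these libraries, which may be technical. Age rises with days of weaning among the weaned groups and cannot be told apart from it. The age of feeding piglets at sampling is not stated.

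MicroRNAs are cut from hairpin precursors, first in the nucleus by Drosha and then in the cytoplasm by Dicer, and the arm that is loaded into an Argonaute protein guides it to partly matching messenger RNAs. In mammals miR-191 and miR-425 lie close together and are read from a shared primary transcript of the DALRD3 locus. In human tissues miR-191 is widely expressed, and it is in common use as a reference against which other microRNAs are scaled in PCR assays. In human cells miR-425-5p has been described as a repressor of the natriuretic peptide gene NPPA.

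In the RefSeq annotation of Sscrofa11.1, MIR425 lies on chromosome 13 from 31654994 to 31655073 and MIR191 from 31655484 to 31655563. The precursors are 410 bases apart, and both lie within the span of DALRD3 (31650880 to 31656320), a protein-coding gene. WDR6 overlaps the lower end of that span, and NDUFAF3 begins at 31656941. No exon or intron boundaries were used here, so the position inside the gene is not given more closely. The other arm, miR-425-3p, was listed in all 12 libraries and is described beside the 5′ arm. No entry for another arm of miR-191 was used here.

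Total counts per library ran between 24670093 and 27784417, and totals for exons, introns and intergenic sequence, which name no small RNA, took 19.96% to 62.17% of them. That share was 23.2%, 40.4% and 20.0% in feeding piglets, 23.9%, 27.2% and 21.6% in the 1-day group, 43.2%, 22.2% and 21.0% in the 3-day group and 62.2%, 39.4% and 32.2% in the 7-day group, and its part in the results was not tested. Known microRNAs took 6987325 to 18331061 counts. Markers of absorptive gut epithelium (miR-215, miR-192, miR-194b-5p and miR-194a, 4 of 4 listed in every library) were present in every group. Their summed level was 220960 to 481270 normalised CPM in feeding piglets, 130350 to 231490 in the 1-day group, 269670 to 326970 in the 3-day group and 54202 to 98218 in the 7-day group. Of 5 markers of epithelium in general, 1 was listed, miR-429, at 1353 to 4523 normalised CPM in the 7-day group, against 5423 to 7724 in feeding piglets. Normalised CPM are counts scaled to the same library total, with TMM factors that ran from 0.728 to 1.63. Replicate 1 of the 7-day group differed from the rest: it had the lowest count of known microRNAs, and 68 of 137 known microRNAs with a mean of at least 100 normalised CPM were lower there than in each of the other 11 libraries. In bulk tissue, fewer cells of a type and less RNA per cell cannot be told apart.

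MiR-191 was among the most abundant microRNAs throughout, ranking between 1 and 5 in each library and 3 by mean level, between miR-192 (90758 normalised CPM) and miR-26a (55391). In feeding piglets it measured 76408, 59990 and 68709 normalised CPM. After 1 day of weaning the values were 74397, 69875 and 79042, and after 3 days 63793, 66212 and 59575. After 7 days they were 60599, 56116 and 50186. The highest library was therefore 1.58 times the lowest. The order of group means was 74438 ± 4584 after 1 day, 68369 ± 8214 in feeding piglets, 63193 ± 3359 after 3 days and 55634 ± 5223 after 7 days (SD, n = 3), and neighbours in that order overlapped. Libraries after 3 days and after 7 days lay below all those after 1 day. Such a gap, in the lower direction, was found for 14.9% of known microRNAs between 3 days and 1 day and for 21.7% between 7 days and 1 day (5.46% and 9.25% of all small RNAs).

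MiR-425-5p stood more than 10-fold lower, between miR-150 (4981 normalised CPM) and miR-199a-3p (4338) in mean level, and ranked 31 among known microRNAs. It measured 5538, 4618 and 5526 normalised CPM in feeding piglets, 4713, 4974 and 6537 after 1 day of weaning, and 4394, 5743 and 5019 after 3 days. After 7 days the values were 1388, 5451 and 4217. All 6 pairs of groups overlapped, and a single library, replicate 1 of the 7-day group, lay below all others. That library was 1.60 lower on the log2 scale than the next lowest, and the group mean of 3685 ± 2083 (SD, n = 3) rests on it. The means were 5227 ± 528 in feeding piglets, 5408 ± 986 after 1 day and 5052 ± 675 after 3 days. In the same library miR-191 was only 0.13 below the median of the other 11 on the log2 scale, while miR-425-5p was 1.85 below it. The median known microRNA was 0.78 below it.

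The minor arm, miR-425-3p, measured 456, 343 and 418 normalised CPM in feeding piglets, 637, 482 and 454 after 1 day of weaning, 291, 423 and 379 after 3 days, and 309, 305 and 318 after 7 days. In normalised CPM, and unlike the 5′ arm, it was level among the 3 libraries after 7 days, with a coefficient of variation of 2.09%. Those 3 libraries lay below all feeding libraries and all libraries after 1 day. Groups apart in this way, in the lower direction, were seen for 13.6% of known microRNAs and 4.53% of all small RNAs in 7 days against feeding. In 7 days against 1 day they were seen for 21.7% of known microRNAs and 9.25% of all small RNAs. The 3-day libraries also lay below all 1-day libraries, a gap seen for 14.9% and 5.46%. The level 7-day values and the gap to feeding depended on the scaling. As shares of known microRNA counts, the 7-day libraries held 0.0753%, 0.0427% and 0.0557%, and feeding libraries 0.0406%, 0.0397% and 0.0499%. In deposited TPM, rescaled counts over each list's total, 7-day libraries were at 190, 206 and 298 against 255, 195 and 333. The groups overlapped in both, and the mean share was higher after 7 days (0.0579% against 0.0434%).

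**Figure D1:**
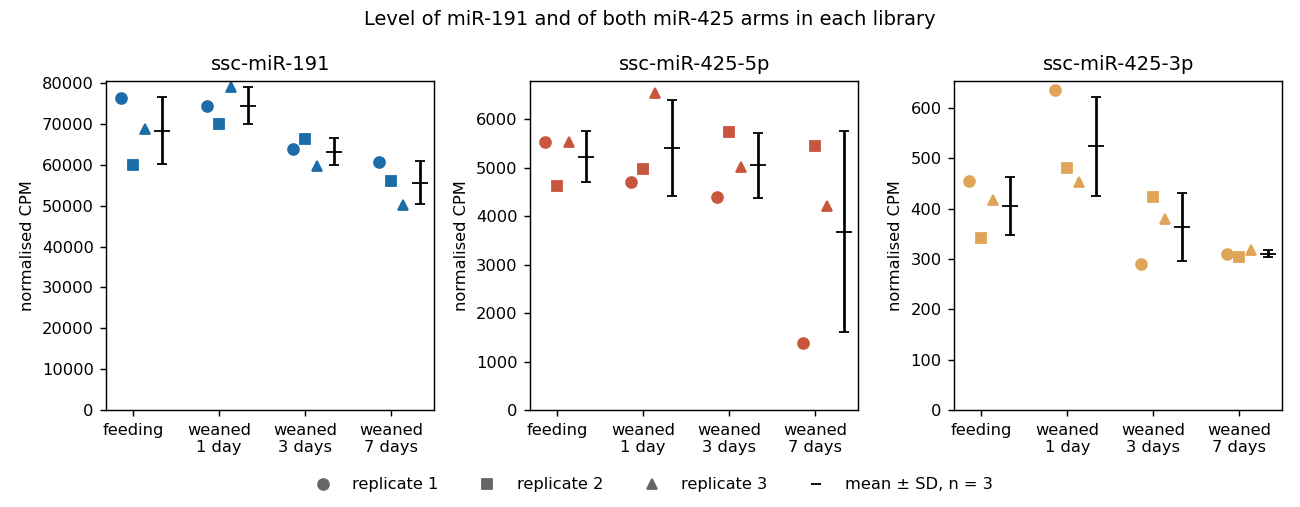
Level of miR-191, miR-425-5p and miR-425-3p in normalised CPM (vertical axes start at 0) by group, with a symbol for each library and the mean ± SD beside it. MiR-191 stays between 50186 and 79042 in all 12 libraries, while miR-425-5p drops to 1388 in replicate 1 of the 7-day group, a library in which miR-425-3p is at 309.

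The comparison of weaned with feeding piglets asks whether weaning alters the level of either microRNA. In no contrast did miR-191, miR-425-5p or miR-425-3p pass the threshold (edgeR quasi-likelihood test, two-sided, Benjamini-Hochberg adjusted p under 0.05 over 2453 small RNAs). The background was as sparse, with 0.0408% of small RNAs called between 7 days and feeding and 0% in each of the other 5 contrasts and among the 4 groups. Known microRNAs fitted alone gave 0.678% between 7 days and feeding, and 0.339% between 7 days and 1 day, between 7 days and 3 days and among the 4 groups. Between 74 and 247 small RNAs had an unadjusted edgeR p under 0.05 in a contrast. DESeq2 called 17 to 58 and limma 0 or 1, with no member among them. After 7 days, miR-191 stood at a log2 fold change of -0.30 ± 0.20 (SE) against feeding, with a 95% interval of -0.73 to 0.13 (edgeR adjusted p = 0.539). The gut epithelium markers given above were lower in all 3 libraries of that group than in any feeding library, and their part in this value was not tested. After 1 day it was 0.12 ± 0.20 (-0.31 to 0.55) and after 3 days -0.11 ± 0.20 (-0.54 to 0.32), each with an edgeR adjusted p of 1. The widest difference was between 7 days and 1 day, at -0.42 ± 0.20 (-0.85 to 0.01), where edgeR gave an unadjusted p of 0.055 and an adjusted p of 0.441. Among the 4 groups together, the edgeR adjusted p was 0.717 for miR-191 and 0.897 for miR-425-5p.

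For miR-425-5p the estimates were wider. Its log2 fold change against feeding was 0.049 ± 0.41 (SE) after 1 day (95% interval -0.85 to 0.94), -0.049 ± 0.41 after 3 days (-0.94 to 0.85) and -0.50 ± 0.41 after 7 days (-1.40 to 0.39; edgeR adjusted p = 0.684). Without replicate 1 of that group the value after 7 days was -0.11, and with known microRNAs alone as well it was 0.017, an alternative chosen after seeing the data. MiR-425-3p was at 0.37 ± 0.30 after 1 day (edgeR adjusted p = 1) and -0.38 ± 0.30 after 7 days (edgeR adjusted p = 0.651). Between 7 days and 1 day it was at -0.75 ± 0.30, with an unadjusted edgeR p of 0.0279 and an adjusted p of 0.441.

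As a p that misses the threshold does not show equal levels, the intervals were read against a 2-fold margin (a log2 of 1 either way). The interval of miR-191 lay inside the margin in 6 of 6 contrasts, against 3 of 6 for miR-425-5p, where each contrast with the 7-day group reached past it, and 2 of 6 for miR-425-3p. Of 295 known microRNAs tested, 31 to 53 had an interval inside the margin in a given contrast. None of the 295 had a smaller standard error than miR-191 in any contrast. The edgeR fit draws these errors toward a trend with abundance, and miR-191 was among the most abundant, so they do not reflect its own spread alone. Under the 20 other settings that gave an interval, scaling to miR-191 itself left out, that of miR-191 stayed inside in 3 contrasts (1 day and 3 days against feeding, and 7 days against 3 days). It reached past the margin in 2 settings for 7 days against feeding, in 3 for 7 days against 1 day and in 1 for 3 days against 1 day, with a lowest bound of -1.16.

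**Figure D2:**
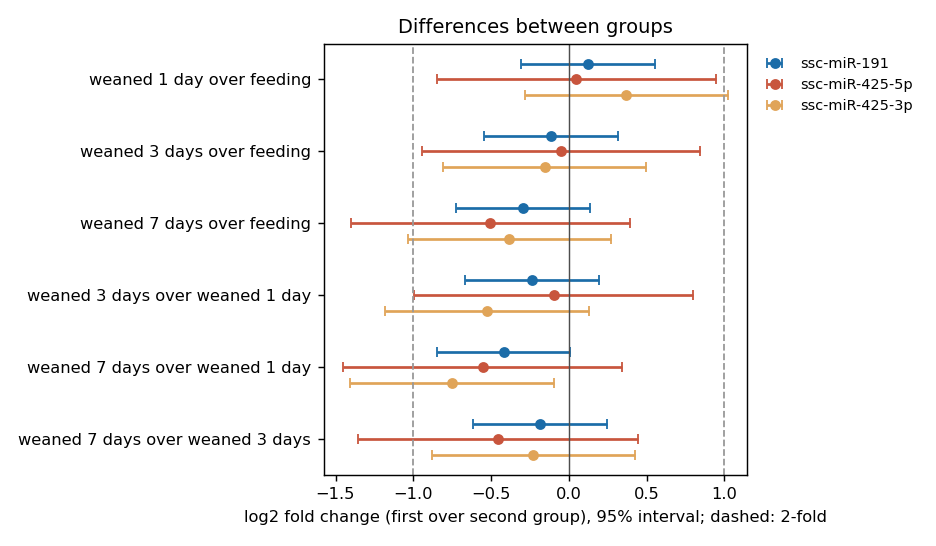
Log2 fold change of miR-191, miR-425-5p and miR-425-3p in the 6 contrasts (first over second named group), with 95% intervals from the edgeR fit over all 12 libraries and dashed lines at 2-fold. The interval of miR-191 lies within the lines in all 6 contrasts, and that of miR-425-5p extends beyond them in the 3 with the 7-day group.

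To place miR-191 as a reference, its spread was set beside that of other microRNAs. The SD of its log2 level over the 12 libraries was 0.194, where counting error alone gives 0.00134. This was the second lowest, rank 2 of the 137 known microRNAs with a mean of at least 100 normalised CPM, whose median SD was 0.506. Only miR-497, a member of the miR-15/16 seed family, was lower (0.187, at 1239 normalised CPM). MiR-186 (0.1995), miR-423-3p (0.202) and miR-126-3p (0.225), an endothelial microRNA, came next. At the other end were miR-199b-3p (3.07), a mesenchymal microRNA, miR-215 (2.52) of gut epithelium and miR-196b-5p (2.42) of the HOX clusters. Other mesenchymal microRNAs spread less: miR-199a-5p (0.277), miR-214 (0.425) and miR-199a-3p (1.20). So did miR-192 (0.586), miR-194b-5p (1.86) and miR-194a (2.09) of gut epithelium. Among the 15 known microRNAs above a mean of 10000 normalised CPM, miR-191 had the lowest SD. Within groups its SD was 0.126, and its group means spanned 0.42 on the log2 scale. MiR-425-5p had an SD of 0.572 and rank 81, but 0.187 and rank 5 without replicate 1 of the 7-day group. Without that library miR-191 had an SD of 0.201 and rank 8. Rank and spread depended on the scaling. MiR-191 had rank 5 with RLE size factors (SD 0.201), 9 with the named total (0.259), 2 of 124 with the whole-list total (0.260) and 8 of 140 with TMM over known microRNAs alone (0.218). With the total of known microRNAs its SD was 0.330, rank 18 of 142, and that of miR-425-5p was 0.329, rank 17, so that the difference in spread between the members was not seen under that scaling. Under the other 5 scalings miR-191 had the lower SD of the pair over the 12 libraries. Without replicate 1 of the 7-day group miR-425-5p had the lower SD with TMM over all small RNAs. The same held with RLE (0.196 against 0.210) and with TMM over known microRNAs alone (0.147 against 0.160). With the named total, the whole-list total and the total of known microRNAs, miR-191 had the lower SD without that library.

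A list of 14 small RNAs in common use as references was compared, of which 10 were listed under those names. In 7 days against feeding, 1 of the 10 was higher and 9 were lower, with 0 called in either direction and 1 at an unadjusted edgeR p under 0.05; the list's median log2 fold change was -0.53, against -0.24 for all known microRNAs tested and 0.32 for all small RNAs. After 1 day the list's median was 0.065, against 0.17 for known microRNAs, and after 3 days 0.035, against -0.050. In both, 0 of the 10 were called. The list's median lay farthest from 0 in 7 days against 3 days, at -0.68, against -0.22 for known microRNAs. There 8 of the 10 were lower and 2 higher, 5 had an unadjusted edgeR p under 0.05 and 0 were called; the lowest edgeR adjusted p was 0.632. The coefficient of variation over the 12 libraries was 13.3% for miR-191, close to 13.8% for miR-423-3p and 15.6% for let-7a, a member of the family that restrains growth genes. It was 24.1% for miR-26a, 29.7% for miR-23a, 30.96% for miR-16, 35.7% for miR-103 and 75.1% for miR-24-3p. Of the 10, only let-7a and miR-423-3p had intervals inside the 2-fold margin in all 6 contrasts, as miR-191 did. MiR-103 stood at -0.999 ± 0.44 (SE) on the log2 scale in 7 days against feeding (edgeR adjusted p = 0.470), more than 3 times the size of the difference of miR-191. Some of these 7-day values lean on replicate 1 of that group. There the mean log2 level of the 10 references was 10.45, against 11.59 and 11.44 in replicates 2 and 3 and 11.56 to 11.76 in feeding piglets. The SD of the log2 level of miR-103 was 0.777, and 0.369 without that library. That of miR-26a hardly moved, at 0.335 and 0.332. MiR-26a had the lowest unadjusted edgeR p of the list in 7 days against 3 days (0.00491).

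**Figure D3:**
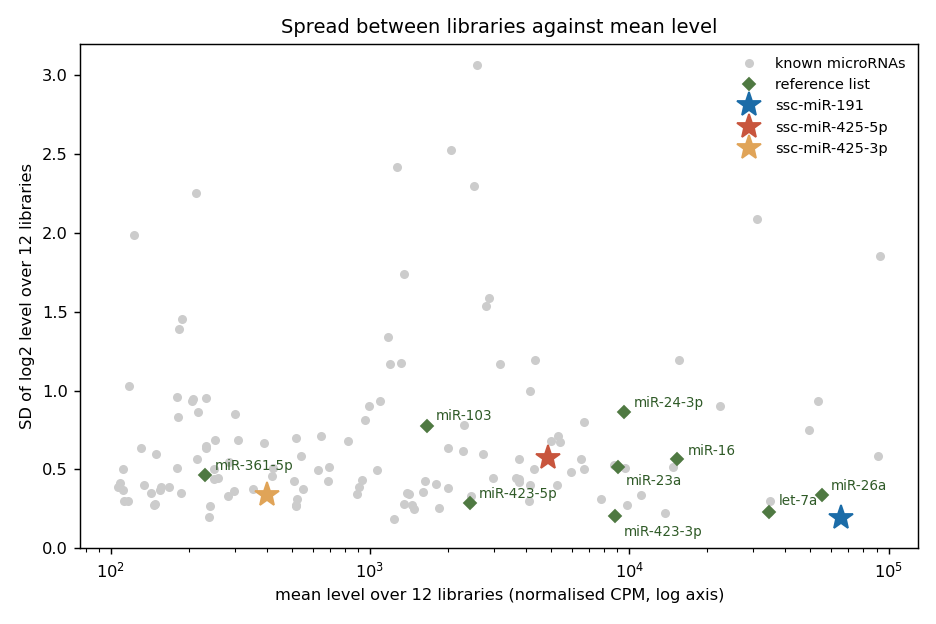
SD of the log2 level over the 12 libraries (vertical axis) against the mean level in normalised CPM (log axis) for 137 known microRNAs, with the listed references marked except miR-107, whose mean of 5.19 is too low. MiR-191 sits at an SD of 0.194 at the lower right, and miR-425-5p at 0.572.

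These SDs rest on the scaling of the libraries, so ratios between microRNAs, which need none, were used as well. The geNorm M value, the mean SD of log2 ratios to the other members of a panel, was 0.49995 for miR-191 (rank 5 of 12), 0.473 for miR-425-5p (rank 3) and lowest for let-7a (0.461). Without replicate 1 of the 7-day group, M was 0.337 for both members of the cluster, which then held ranks 1 and 2. The panel held both members, which come from neighbouring precursors, so each M takes in their ratio to each other. Without that library the SD of this ratio was 0.175, below either M, so ranks 1 and 2 are not independent of the pairing. Both the panel and the 10 references also took in both arms of miR-423. They held miR-107 too, at a mean of only 5.19 normalised CPM, where counting error alone gives an SD of 0.168 on the log2 scale. Over all 137 microRNAs, the median SD of log2 ratios was 0.5002 for miR-191 (rank 11) and 0.589 for miR-425-5p (rank 53). Without that library these were 0.394 (rank 3) and 0.390 (rank 2). The log2 level of miR-191 exceeded the mean log2 level of the 10 references by 4.16 to 4.56 in 11 libraries and by 5.43 in replicate 1 of the 7-day group.

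The direction of miR-191 after 7 days depended on the scaling. Against feeding its log2 fold change was -0.30 with TMM over all small RNAs, -0.33 with RLE size factors and -0.11 with the whole-list total, 0.023 with TMM over known microRNAs alone and 0.35 with the total of named small RNAs. The median of all known microRNAs moved alongside, at -0.24, -0.32, -0.014, 0.0020 and 0.33 in the same order. A scaling multiplies all counts of a library by the same factor, so this joint movement is built in. The scalings are therefore not separate evidence on the distance of miR-191 from that median. The median of all small RNAs was 0.32, 0.27 and 0.56 in the first 3 scalings and 0.92 in the last. Set against the median known microRNA of the same fit, miR-191 was at -0.059 under the first scaling. Over 22 fits, leaving out a library included, this difference ran from -0.26 to 0.13. After 1 day it ran from -0.088 to 0.043 and after 3 days from -0.20 to 0.022. For miR-425-5p it ran from -0.59 to -0.011 after 7 days. Leaving out replicate 1 of the 7-day group, with TMM over all small RNAs, turned the order of the members. MiR-191 was then at -0.26 from the median known microRNA and miR-425-5p at -0.011.

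**Figure D4:**
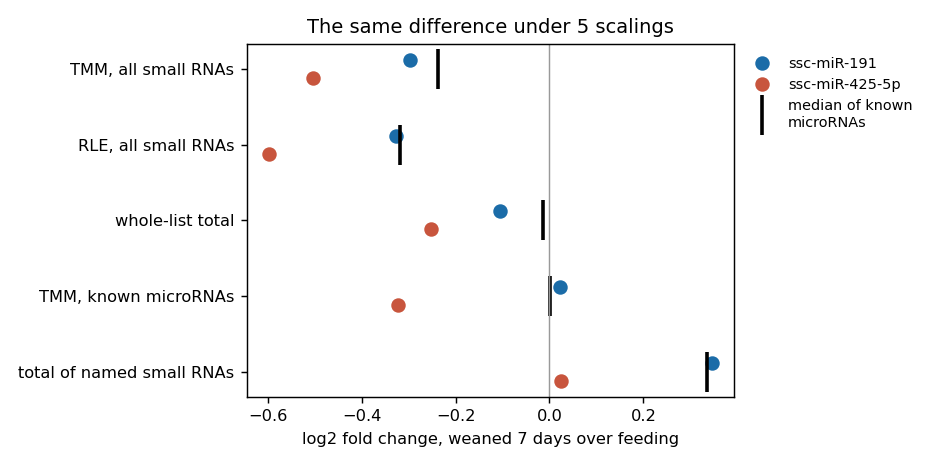
Log2 fold change of miR-191 and miR-425-5p in piglets weaned for 7 days over feeding piglets under 5 scalings, with a black bar at the median of known microRNAs in the same fit. Over all 12 libraries miR-191 runs from -0.33 to 0.35 and stays near the bar, while miR-425-5p lies below it under each scaling. A change of scaling moves both points and the bar together, so the 5 rows are not separate evidence on their distances. Without replicate 1 of the 7-day group (not shown), miR-191 lay farther below the median than miR-425-5p with TMM over all small RNAs.

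With each library scaled to its miR-191 count alone, the fitted values moved. In 7 days against feeding the median log2 fold change of known microRNAs was 0.056, with 137 of 295 lower, where TMM gave -0.24 with 209 lower. With miR-191 fixed at 0 in this setting, that median restates the distance of miR-191 from the median known microRNA given above. The median of all small RNAs in 7 days against 1 day was 0.79, where TMM gave 0.35. Calls were too few under either scaling to compare them: 1 small RNA passed between 7 days and feeding, miR-676-3p, which also passed with TMM, and 0 passed in each of the other 5 contrasts (edgeR). Unadjusted p under 0.05 was reached by 270 small RNAs in this setting and by 243 with TMM for 7 days against feeding. Scaled this way, miR-425-5p was at a log2 fold change of -0.082 after 1 day, 0.061 after 3 days and -0.17 after 7 days against feeding.

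As a share of known microRNA counts, miR-191 took 6.81%, 6.95% and 8.20% in feeding piglets, 7.71%, 9.01% and 8.55% after 1 day of weaning, 7.52%, 6.08% and 6.45% after 3 days, and 14.8%, 7.87% and 8.79% after 7 days. The Wilson 95% interval of the highest share was 14.7% to 14.8%, covering counting error only. The 7-day shares lay above all 3-day shares, by 3.79 percentage points in the mean, and the 3-day shares lay below all 1-day shares, by a mean difference of -1.74. The first gap runs opposite to the normalised CPM, where the 7-day mean was below the 3-day mean. Such gaps in the same direction were found for 32.2% of known microRNAs in 7 days against 3 days and 19.7% in 3 days against 1 day. Each had an exact permutation p of 0.1, the smallest that 3 against 3 allows (0.873 adjusted over 24 pairs). Among the 4 groups the shares did not pass an exact permutation test (p = 0.0772, adjusted over 4 such tests 0.309), and p was 0.00610 without replicate 2 of the 7-day group. MiR-425-5p took 0.613% ± 0.239 after 7 days and 0.563% ± 0.0864 in feeding piglets (SD, n = 3; exact permutation p = 0.865 among the 4 groups). Replicate 1 of the 7-day group thus held the highest share of miR-191, 14.8%, and the lowest of miR-425-5p, 0.338%. Its summed gut epithelium markers were the lowest of the 12 libraries, at 54202 normalised CPM, against 130350 to 481270 outside the 7-day group. Its summed smooth muscle markers (32304, 7 of 7 listed) lay just under the range of feeding libraries (33077 to 42511). By mean level over the libraries this sum mostly follows miR-143-3p (49244 normalised CPM, against 1177 for miR-145-5p), so it does not show that the 7 moved alike. Its leukocyte markers (6077, 4 of 5 listed) lay within the range of feeding libraries (4716 to 7465). The part of these cell types in the values was not tested.

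The count ratio of miR-191 to miR-425-5p ran from 10.3 to 15.8 outside that library. It was 13.8, 13.0 and 12.4 in feeding piglets, 15.8, 14.05 and 12.1 after 1 day, and 14.5, 11.5 and 11.9 after 3 days. After 7 days it was 43.7, 10.3 and 11.9. On the log2 scale its SD was 0.539 over 12 libraries, rank 77 among the 136 partners of miR-191, and 0.175 over 11 libraries, rank 4. The 4 groups did not differ in it by an exact permutation test (p = 0.965 unadjusted and adjusted), with p between 0.245 and 0.990 when a library was left out. The ratio of miR-191 to miR-425-3p held in that library, at 196, against 117 to 219 in the other 11. It had an SD of 0.226 on the log2 scale, rank 9 of 136.

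The ratio of the 5′ to the 3′ arm of miR-425 was 12.1, 13.5 and 13.2 in feeding piglets, 7.40, 10.3 and 14.4 after 1 day of weaning, 15.1, 13.6 and 13.3 after 3 days, and 4.48, 17.9 and 13.3 after 7 days. Feeding libraries were close together, and the lowest 2 values were replicate 1 after 7 days and replicate 1 after 1 day. That replicate after 1 day had the highest summed smooth muscle markers, 204910 normalised CPM against 30116 to 47288 outside its group, and their part was not tested. Such sums mostly follow miR-143-3p, as given above. The groups did not differ in this ratio by an exact permutation test (p = 0.813, adjusted 0.965).

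**Figure D5:**
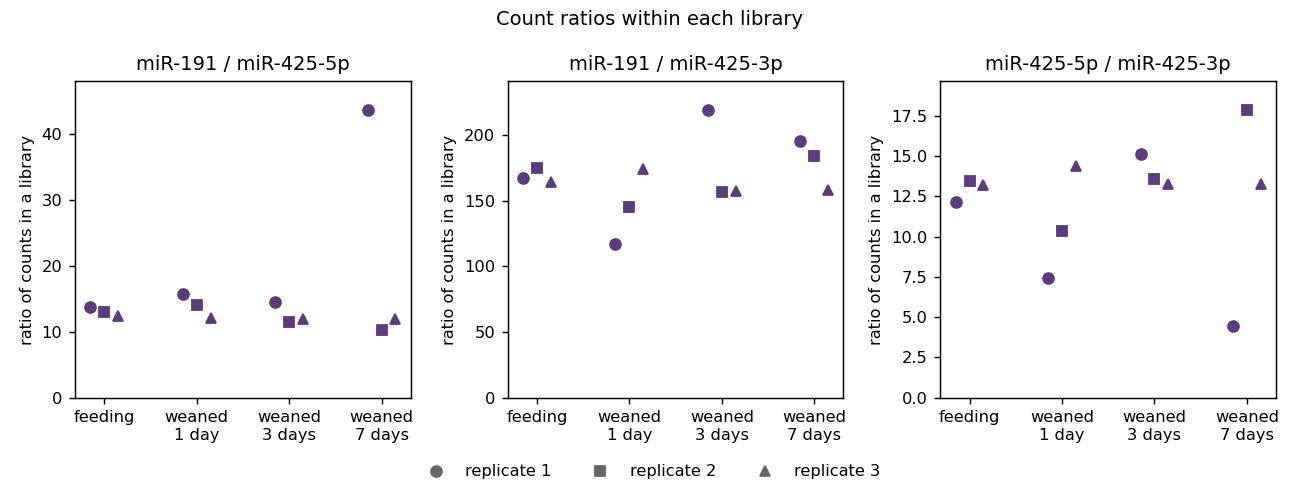
Count ratios within each library by group, with a symbol for each library: miR-191 to miR-425-5p, miR-191 to miR-425-3p, and the 5′ to the 3′ arm of miR-425. Replicate 1 of the 7-day group is at 43.7 in the first panel, at 196 in the second, within the range of the others, and at 4.48 in the third.

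Across the 12 libraries, the log2 levels of miR-191 and miR-425-5p had a Pearson r of 0.335 (permutation p = 0.294) and a Spearman rho of 0.545 (permutation p = 0.0704). Of 8 relations computed, adjusted p was 0.471 and 0.1503 for these. Without the 2 libraries farthest from the median of miR-191, r was 0.276, and on deviations from group means it was -0.19. Without replicate 1 of the 7-day group r was 0.594 (permutation p = 0.0537, adjusted 0.143). With miR-425-3p, miR-191 had r = 0.766 (permutation p = 0.00372, adjusted 0.0170) and rho = 0.762 (permutation p = 0.00555, adjusted 0.0408), and r was 0.813 without the 2 farthest libraries. This relation was not computed on deviations from group means, so differences between the groups are part of it. Its r ran from 0.504 to 0.910 over 6 scalings, whereas that with miR-425-5p ran from -0.57 to 0.578. Libraries share their scaling within each such value, which moves both microRNAs at the same time.

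The pattern most like that of miR-191 over the 12 libraries, among microRNAs with a mean of at least 100 normalised CPM, was that of let-7g (r = 0.784), followed by miR-425-3p (0.766), miR-362 (0.744), let-7d-5p (0.698) and miR-186 (0.694). MiR-425-5p came at rank 57. The microRNAs most like miR-425-5p were let-7i (0.968), miR-20a (0.965), miR-345-5p (0.959), miR-363 (0.957) and miR-138 (0.954). These last values rest on replicate 1 of the 7-day group, since without it the first 5 were miR-30d (0.876), miR-19b (0.716), let-7g (0.671), miR-7142-3p (0.664) and miR-16 (0.664). Without it let-7g remained first for miR-191, at 0.906.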

How the data were processed

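In the authors' deposited table each library has its own list, with whole-number counts and TPM, per the file headers. The deposited TPM is the count over the total of that list, rescaled with no length term (within 0.005), and served as a check. A small RNA not in a list was entered as 0. The submitters' processing notes name build Sscrofa11.1. Aligner, counting tool and the treatment of reads with several matches: not given in the sources used here. Neither member was listed more than 1 time in a library.

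Small RNAs were kept by filterByExpr (minimum count 10, minimum total 15), which left 2453, of which 295 were known microRNAs. EdgeR 4.0.16 (R 4.3.3) with TMM factors fitted 4 group means over 12 libraries, and was run on simulated data. That simulation gave all small RNAs a single dispersion, below the one fitted here (a coefficient of variation between libraries of 129%). It also held no outlying library, so it does not show how the fit performs at the spread of these data. Alternatives used DESeq2 1.42.0, limma 3.58.1 on log2(CPM + 1), other scalings, features and filters, and each library left out. Permutation tests used SciPy 1.17.1 or full enumeration of 369600 assignments; correlations used 100000 resamples. The named microRNAs are the members, the other arm, the reference list, the 5 most alike, the 5 with the lowest and 3 with the highest SD, and neighbours in level. Members and lists were chosen with earlier results of these data known. The ratio of arms and scaling to miR-191 were added after seeing the data. Counts per library give intervals for counting error only, as PCR copies are not told apart.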

Additional observations from a re-analysis of the deposited data

How the results depend on the processing

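No member passed the threshold in any contrast under any of the 21 alternatives for miR-191 (scaling to itself fixes it at 0 and is not counted) or the 22 for miR-425-5p; over all small RNAs, the 1 call between 7 days and feeding became 42 with DESeq2 and 146 with no filter, and the 0 calls of the other contrasts became 17 to 58 and 23 to 149; adjusted p ran from 0.393 to 1 for miR-191 and from 0.406 to 1 for miR-425-5p. No paired analysis was made, because the labels state no litter or other pairing between groups. The replicate numbers used here follow the order of the samples within a group. Signs of small log2 differences turned as follows, and the cause was not tested. For miR-191, known microRNAs alone gave -0.0046 for 1 day against feeding, and 0.023, 0.027 and 0.094 for 7 days against feeding, 1 day and 3 days. The named total gave 0.35, 0.12 and 0.48 for the same 3 contrasts; for 7 days against 3 days the whole-list total gave 0.069 and only the 2 groups 0.018. For miR-425-5p in 1 day against feeding, DESeq2 and RLE each gave -0.061, known microRNAs alone -0.079, miR-191 scaling -0.082 and only the 2 groups -0.0094. MiR-191 scaling gave 0.061 for 3 days against feeding and 0.14 for 3 days against 1 day, where known microRNAs alone gave 0.054. The named total gave 0.024 for 7 days against feeding and 0.11 for 7 days against 3 days.

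Restricting the fit to known microRNAs while leaving out replicate 1 of the 7-day group, a setting chosen after seeing the data, as was scaling to miR-191, gave -0.050 for miR-191 in 1 day against feeding. For miR-425-5p it gave -0.13 for 1 day and 0.017 for 7 days against feeding, 0.079 for 3 days and 0.15 for 7 days against 1 day, and 0.066 for 7 days against 3 days. With each of the 12 libraries left out in turn over all small RNAs, log2 differences of miR-191 ran from -0.050 to 0.21 for 1 day, -0.31 to -0.024 for 3 days and -0.51 to -0.23 for 7 days against feeding. They ran from -0.27 to -0.19 for 3 days against 1 day, -0.48 to -0.37 for 7 days against 1 day and -0.25 to -0.13 for 7 days against 3 days. For miR-425-5p they ran from -0.12 to 0.14, -0.24 to 0.048 and -0.91 to -0.11 against feeding in the same order of days. They ran from -0.20 to 0.064 for 3 days against 1 day, -0.96 to -0.16 for 7 days against 1 day and -0.86 to -0.066 for 7 days against 3 days. The permutation p of the share of miR-191 ran from 0.00610 to 0.211, and that of miR-425-5p from 0.0829 to 0.918. For the arm ratio it ran from 0.179 to 0.915. The SD of miR-191 ran from 0.163 to 0.203 and was 0.330 with the known microRNA total; that of miR-425-5p ran from 0.187 to 0.59996. The correlation of both was 0.578 with the whole-list total (permutation p = 0.0191), -0.57 with TMM of known microRNAs alone, and 0.241 to 0.594 with a library left out (the highest without replicate 1 of the 7-day group).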

Other observations

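The low 5′ to 3′ ratio of miR-425 in replicate 1 of the 7-day group was set beside the other microRNAs with both arms at 10 or more counts in every library. Of 48 such pairs, 13 had a log2 ratio of the 5′ to the 3′ arm below the range of the other 11 libraries, 11 were above it and 24 were inside it. MiR-425 was shifted by -1.56 from the median of the others, rank 14 by size, against a median size of 0.873. The largest shifts were those of miR-199b (9.46), miR-194b (-5.18), miR-345 (-4.43) and miR-145 (-4.19), chosen after their values were seen. MiR-423, whose 3′ arm had a low SD over the libraries, was shifted by -0.041.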
